A study of Mus musculus with 2 samples.

Results

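The proteasome genes of the array were taken as all probes outside the control classes whose gene name in the scanner files begins with Psma, Psmb, Psmc, Psmd, Psme, Psmf or Psmg followed by a digit. This gave 44 genes on 68 probes, of 21243 genes with a symbol on 41169 probes. Of these genes, 32 encode constitutive subunits of the 20S core or 19S cap by their names, 3 the immune beta subunits, 3 assembly chaperones of the cap, 4 activators and 1 an inhibitor. The remaining gene, Psmc3ip, carries the name of its binding partner and encodes a meiotic recombination protein, not a proteasome subunit. No probe name began with Psmg.

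The data came from gastrocnemius muscle of male C57BL/6 mice. In 1 group the muscle had been denervated at 7 weeks of age and was taken after 14 days, and the other group were control mice; both were 9 weeks old at sampling. The controls are named sham in one of their labels but not in the other, and whether those mice were operated on is not stated. RNA of 6 mice was pooled for each group and each pool was hybridised to 1 array, both on one slide. Group and slide position cannot be told apart. No difference below has a replicate check or a test; each describes these 2 pools.

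The 26S proteasome degrades proteins that carry ubiquitin chains. Its 20S core is a barrel of stacked rings, in which alpha subunits form the gated ends and beta subunits carry the cutting sites inside. The 19S cap binds the ubiquitin chain, removes it and threads the substrate into the core with a ring of ATPases. Immune cells, and other cells exposed to interferon, build cores in which Psmb8, Psmb9 and Psmb10 take the places of the catalytic subunits Psmb5, Psmb6 and Psmb7. In skeletal muscle the ubiquitin-proteasome pathway is known for breaking down contractile proteins during atrophy.

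Signals are background-subtracted Cy3 intensities in the scanner's units. Their 75th percentile was 788 for control and 1063 for denervated muscle, and 70.9% and 68.4% of probes, in the same order, were well above background. A log2 difference is the log2 signal of the denervated pool minus that of the control pool after each is divided by its array's 75th percentile, and a difference of 1 is a 2-fold change. Differences are on this scale unless another is named. The value after ± is the technical spot error given by the scanner software, which does not hold the spread between mice. It was 0.20 for every measured proteasome gene. A gene counts as measured if the software marked a probe well above background, and not saturated, on each array; the brightest such probe stands for the gene. The labelled tissue was checked by its markers: all 8 skeletal muscle markers were measured, with Acta1, the skeletal actin gene, at 476463 in control and 444559 in denervated muscle (-0.53 ± 0.20). On this scale 7 of the 8 were below 0, with a median of -0.37 (0.028 with spike-in scaling), and their signals in multiples of the 75th percentile summed to 2929 in control and 2243 in denervated muscle. The part of this in the proteasome values was not tested.

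Of the 44 genes, 43 were measured. Messenger RNAs of the constitutive 20S and 19S subunits found by the name rule were higher in the denervated pool. All 31 measured ones had a positive log2 difference, from 0.48 for Psmd12 to 1.46 for Psmd4, with a median of 0.92, or 1.89-fold. Of the cap subunits outside the name rule, Adrm1 stood at 1.01 and Sem1 at -0.25 (0.15 with spike-in scaling). The 3 immune beta genes and the 4 activator genes had medians of -0.35 and -0.28. All 12 proteasome genes that were at least 2-fold higher were constitutive subunits, and none was 2-fold lower. Among all 15194 measured genes, 6.96% passed 2-fold upward and 8.62% downward, 42.8% were above 0 and the median difference was -0.11. The 31 constitutive subunits were bright, with control signals of 2194 to 59798. Genes whose mean log2 signal over both arrays was at least that of the dimmest of them are therefore a second reference. Their control signals ran from 303 to 673178, so they are not matched in brightness, and a gene could enter through a high signal on 1 array. Of those 3971 genes, 6.67% were at least 2-fold higher and 47.8% above 0, with a median of -0.03.

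**Figure D1:**
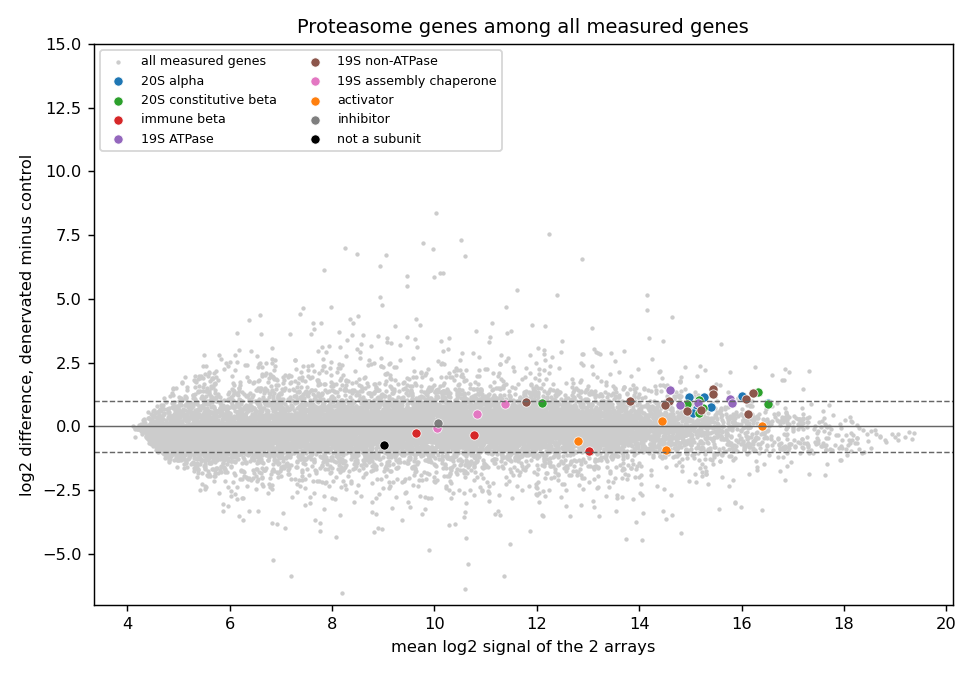
Log2 difference (denervated minus control) against the mean log2 signal of the 2 arrays for all 15194 measured genes (grey) and the 43 measured proteasome genes (coloured by class), with dashed lines at 2-fold. The constitutive subunits lie together in the bright part of the plot between 0.48 and 1.46, and the immune beta subunits and the activators lie lower.

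The spread among the constitutive subunits was small. The standard deviation of their differences was 0.26, against 0.85 over all measured genes and 0.83 over the bright genes of the second reference. The 2-fold line ran through the middle of the group: 17 of the 31 lay within 1 technical error of it, 6 of them above and 11 below. Only 6 exceeded 2-fold by more than that error. The count of 12 therefore depends on the scaling between arrays. With the spike-in controls as the scale every difference moved up by 0.40, and 28 of the 31 were then past 2-fold, against 14.6% of all genes and 14.9% of the bright ones. No proteasome gene was 2-fold lower on that scale, against 4.18% of all genes, and 67.7% of all genes were above 0. Relative to the median of all genes, the constitutive median stood 1.04 higher under both scalings.

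**Figure D2:**
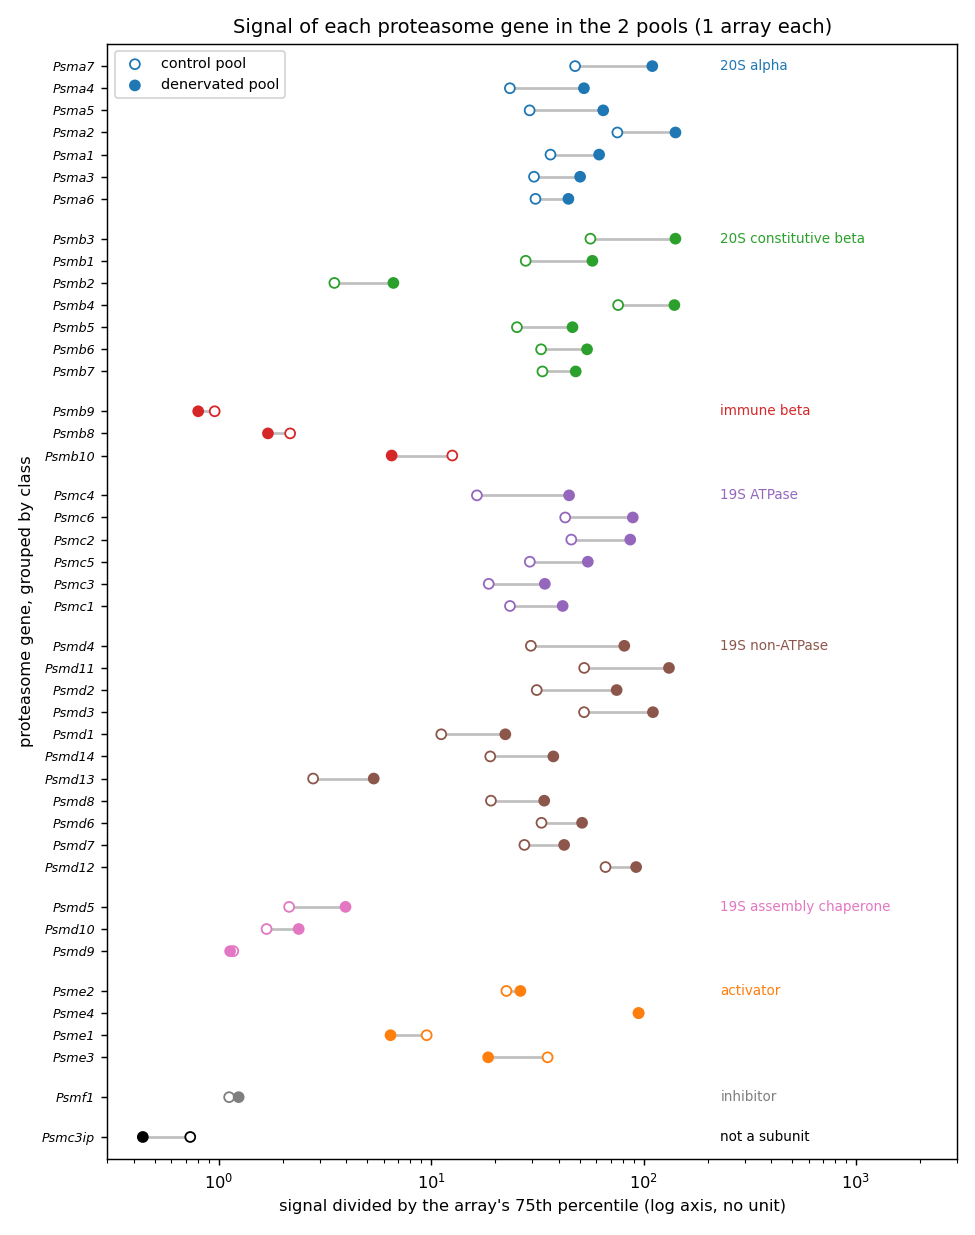
Signal divided by the array's 75th percentile (log axis) for the 43 measured proteasome genes, grouped by class, with open circles for the control pool and filled circles for the denervated pool. For every constitutive 20S and 19S subunit the filled circle lies to the right of the open one, whereas for the 3 immune beta subunits it lies to the left; both circles of Psme4 coincide.

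Because the constitutive genes had differences of like size and the immune genes had others, upstream sequences of both are shown for comparison. The 3 constitutive genes with the largest differences of the non-ATPase, ATPase and beta classes by the brightest probe come first, then the partners Psmb5 and Psmb6, then Psmb8 and Psmb9. Each is the 250 bases before the RefSeq start of the gene, 5′ to 3′ on its own strand, and capitals mark any match, on either strand, to CGGAAG (the core of ETS factor sites), CCAAT (the CCAAT box), TGACNNNGC (a core of antioxidant response elements) or GAAANNGAA (an interferon response repeat).
Psmd4 (GRCm38.p6 chr3:95042615-95042864, minus strand): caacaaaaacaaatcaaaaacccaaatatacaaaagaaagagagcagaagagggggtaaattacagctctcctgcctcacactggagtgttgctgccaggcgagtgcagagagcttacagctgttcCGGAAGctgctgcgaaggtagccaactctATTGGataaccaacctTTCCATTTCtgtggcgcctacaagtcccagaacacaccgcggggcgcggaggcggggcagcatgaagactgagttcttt
Psmc4 (GRCm38.p6 chr7:28050093-28050342, minus strand): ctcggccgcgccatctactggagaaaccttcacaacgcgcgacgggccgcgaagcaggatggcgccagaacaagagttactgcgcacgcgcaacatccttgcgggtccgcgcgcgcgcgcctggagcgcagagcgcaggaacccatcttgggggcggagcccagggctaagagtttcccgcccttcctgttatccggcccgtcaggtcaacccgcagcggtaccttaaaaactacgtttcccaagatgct
Psmb3 (GRCm38.p6 chr11:97703184-97703433, plus strand): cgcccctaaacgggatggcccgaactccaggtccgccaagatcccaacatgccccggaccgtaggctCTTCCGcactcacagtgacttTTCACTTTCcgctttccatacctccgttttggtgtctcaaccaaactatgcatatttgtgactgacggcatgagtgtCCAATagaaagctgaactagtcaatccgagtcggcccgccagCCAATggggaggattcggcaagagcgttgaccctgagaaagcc
Psmb5 (GRCm38.p6 chr14:54617996-54618245, minus strand): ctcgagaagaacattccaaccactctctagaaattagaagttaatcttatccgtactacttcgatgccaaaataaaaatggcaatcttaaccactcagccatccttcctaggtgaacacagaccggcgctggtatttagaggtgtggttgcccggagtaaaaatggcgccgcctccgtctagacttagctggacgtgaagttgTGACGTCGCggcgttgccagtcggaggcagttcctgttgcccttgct
Psmb6 (GRCm38.p6 chr11:70525107-70525356, plus strand): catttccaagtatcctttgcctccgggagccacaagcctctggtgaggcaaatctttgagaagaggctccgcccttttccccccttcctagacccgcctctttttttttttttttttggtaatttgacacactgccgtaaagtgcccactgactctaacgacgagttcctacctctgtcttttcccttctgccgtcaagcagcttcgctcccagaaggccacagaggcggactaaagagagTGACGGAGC
Psmb8 (GRCm38.p6 chr17:34197945-34198194, plus strand): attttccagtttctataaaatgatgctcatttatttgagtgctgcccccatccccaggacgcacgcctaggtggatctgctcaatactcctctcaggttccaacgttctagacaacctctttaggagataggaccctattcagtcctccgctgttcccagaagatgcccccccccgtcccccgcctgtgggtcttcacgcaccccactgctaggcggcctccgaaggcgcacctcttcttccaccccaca
Psmb9 (GRCm38.p6 chr17:34187331-34187580, minus strand): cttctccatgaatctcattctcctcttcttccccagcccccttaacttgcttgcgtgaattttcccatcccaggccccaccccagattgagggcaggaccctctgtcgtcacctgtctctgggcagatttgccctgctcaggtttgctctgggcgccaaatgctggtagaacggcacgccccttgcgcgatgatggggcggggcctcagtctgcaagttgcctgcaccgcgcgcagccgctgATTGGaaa

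Windows of 300 bases (250 before the start and 50 after it) were held in the RefSeq table for 37 of the 44 genes; Psma8, Psmb1, Psmb2, Psmb7, Psmc3, Psmd3 and Psmd7 had no entry. CGGAAG was found in 17 of the 25 constitutive subunits with a window (68%), against 18.8% of all 27025 genes with one and 38.1% of the 3104 bright genes with one, and in none of the windows of Psmb8, Psmb9 and Psmb10. It was also found in genes that were not higher, Psme3 (-0.93), Psme4 (0.00) and Psmc3ip (-0.74), so that 20 of the 37 members held it. It stands in the sequences of Psmd4 and Psmb3 above, and for Psmc4 it lay in the 50 bases after the start, which are not printed. CCAAT was found in 10 of the 25 (40%), against 41.1% of all genes and 42.8% of bright ones. TGACNNNGC was found in 4 of the 25 (16%), against 14.0% of all genes and 18.4% of bright ones, among them Psmb5 and Psmb6. GAAANNGAA was found in 4 of the 25 (16%), against 9.76% of all genes and 8.57% of bright ones. Psmd4 and Psmb3 held it, as did the activator gene Psme1, and no window of the 3 immune beta genes did. In all, 9 patterns were searched on both strands, and CGGAAG was singled out after their counts were seen. TGANNNNGC, which contains TGACNNNGC, was found in 14 of the 25 (56%), against 45.0% of all genes and 48.7% of bright ones. TGACTCAGC, a site of the Nfe2 family, was found in 0, against 0.503% and 0.612%. GGGANTTTC for NF-kappaB was found in 1 (4%), against 1.29% and 0.934%. ACTACANNT for Znf143 was found in 2 (8%), against 4.78% and 6.41%. GCGCATGCG for nuclear respiratory factor 1 was found in 1 (4%), against 1.95% of all genes and 5.41% of bright ones. Longer forms of the last 3 and of GAAANNGAA were counted first and shortened to these. A match describes letters in a window and not a bound site. The windows of Psmb9 and Tap1 face away from each other and share 275 bases, one read as the reverse complement of the other.

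The alpha subunits form the outer rings of the core and its gate. All 7 measured alpha genes were higher, with a median of 0.91. Psma7 had the largest difference of the class, with a signal of 37513 in control and 116810 in denervated muscle, a log2 difference of 1.21 ± 0.20 (2.31-fold; transcript NM_011969, probe on mm8 chromosome 2 from 179965852 to 179965911). Psma4 gave 18502 and 55690, a difference of 1.16 ± 0.20, with its second probe at 0.99. Psma5 gave 22918 and 68622, a difference of 1.15 ± 0.20. These were the 3 alpha genes past 2-fold. Psma2, the brightest of the class, gave 59311 and 150172 (0.91 ± 0.20), and Psma1 and Psma3 stood at 0.76 and 0.72. Psma6 was the lowest, with 24417 in control and 47071 in denervated muscle (0.51 ± 0.20). Psma8, an alpha subunit of the testis, was the gene not measured: its signal was 21.2 in control muscle, well above background, and 11.3 in denervated muscle, not above it. With the lowest detected denervated signal (17.9) in place of 11.3, control exceeded denervated by 1.60-fold on the scale used here. That factor is smaller with spike-in scaling and leaves out the probe's technical error of 0.68, so it is not a firm lower limit.

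The 7 constitutive beta genes had a median of 0.88, and all were higher. Psmb3, a non-catalytic beta subunit, led with 44282 in control and 150084 in denervated muscle, a difference of 1.33 ± 0.20 (2.51-fold; NM_011971, probe on mm8 chromosome 11 from 97529524 to 97529583). Its second probe gave 1.35. Psmb1, also non-catalytic, gave 21965 and 61032 and was the other beta gene past 2-fold at 1.04 ± 0.20. The non-catalytic Psmb2 and Psmb4 stood at 0.92 and 0.88, although the signal of Psmb2 (2763 in the control pool) came from a much dimmer probe. The 3 catalytic genes had the lowest differences of the class. Psmb5, the chymotrypsin-like subunit, gave 19975 and 49190 (0.87 ± 0.20). Psmb6, the caspase-like subunit, gave 25953 and 57599 (0.72 ± 0.20). Psmb7, the trypsin-like subunit, gave 26329 and 50938 (0.52 ± 0.20). That order within the class was seen after the values. The class spanned 0.81, but Psmb5 at 0.87 lay closer to the non-catalytic Psmb4 at 0.88 than the technical error of 0.20.

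The base of the cap is a ring of the ATPases Psmc1 to Psmc6, which unfold the substrate. All 6 were higher, with a median of 0.91 and the smallest standard deviation of the 4 constitutive classes, 0.23. Psmc4 stood apart from the other five. Its signal was 12944 in control and 47427 in denervated muscle, a difference of 1.44 ± 0.20 (2.72-fold; NM_011874, mm8 chromosome 7, 27750873 to 27751114), and its second probe also gave 1.44. Psmc6 gave 33700 and 94561 (1.06 ± 0.20). The remaining ATPase genes lay between 0.82 for Psmc1 and 0.92 for Psmc2, with Psmc3 at 0.88 and Psmc5 at 0.91. The second probe of Psmc5 gave 0.81.

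The 11 non-ATPase cap genes hold the ubiquitin receptors, the deubiquitinase and the scaffold of the lid. They had the highest class median, 0.99, and the widest range of the constitutive classes. Psmd4, an intrinsic ubiquitin receptor, had the largest difference of all proteasome genes by the brightest probe: 23229 in control and 86241 in denervated muscle, or 1.46 ± 0.20 (2.75-fold; NM_008951, mm8 chromosome 3, 95119413 to 95120011). A dim second probe (85.8 and 236) gave 1.03, and by the mean of its probes Psmd4, at 1.25, lay below Psmc4. Psmd11, a lid subunit that bridges core and cap, gave 41387 and 139951 (1.33 ± 0.20). Psmd2, the large base subunit that docks ubiquitin shuttle factors, gave 24748 and 79383 (1.25 ± 0.20), with its second probe at 1.41. Psmd3 of the lid (41333 and 117598, 1.08 ± 0.20) and Psmd1 of the base (8796 and 23762, 1.002 ± 0.20) also reached 2-fold, Psmd1 only just. Psmd14, the deubiquitinase that removes the chain, gave 14956 and 39969 (0.99 ± 0.20) and stayed just below it, with its other probe at 1.02. Its catalytically inactive partner Psmd7 stood at 0.62 by its brightest probe and at 0.53 and 0.99 by the others. Psmd13, Psmd8 and Psmd6 stood at 0.95, 0.83 and 0.63. At the low end was Psmd12 of the lid, with 52151 and 98042 (0.48 ± 0.20), the smallest difference of the constitutive subunits found by the name rule.

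**Figure D3:**
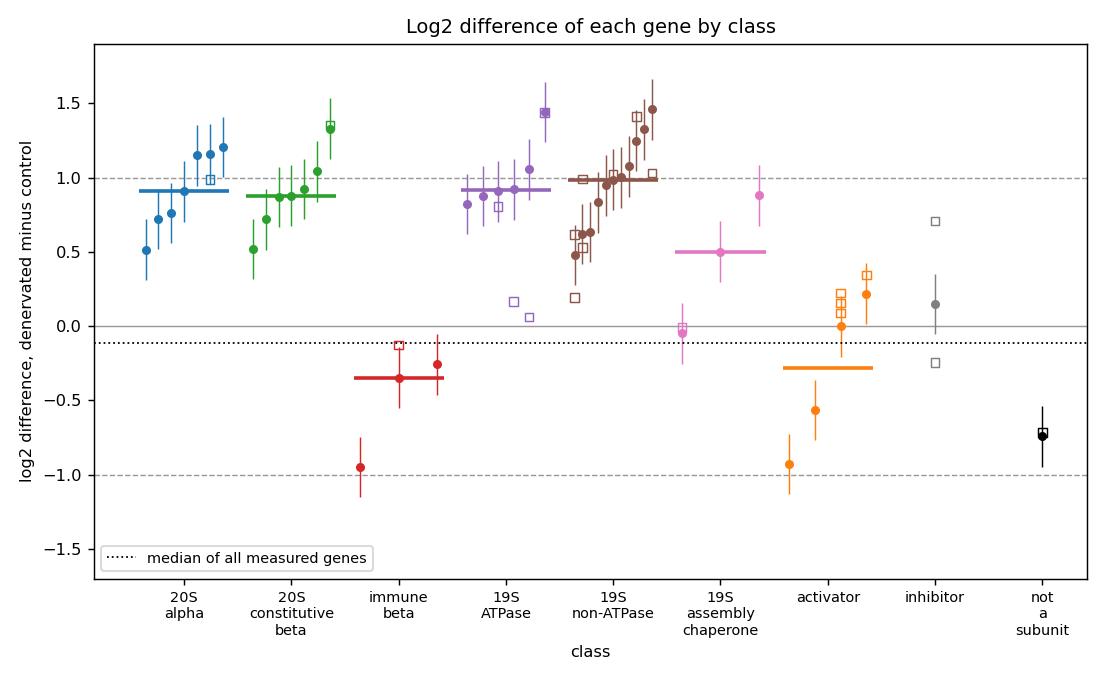
Log2 difference (denervated minus control) of each measured proteasome gene by class; filled points are the brightest probe with the scanner's technical error, open squares are other measured probes of the same gene, thick bars are class medians, dashed lines mark 2-fold and the dotted line is the median of all measured genes. The 4 constitutive classes have medians of 0.88 to 0.99, whereas the immune beta and activator medians are -0.35 and -0.28.

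Second probes gave the same direction throughout the constitutive subunits. All 44 of their measured probes were above 0, and of the 11 genes with at least 2 measured probes, 6 had probes within 0.2 of each other. The large gaps were mostly at probes for other cDNA records. The 40 probes of RefSeq mRNAs had a median of 0.94, whereas the 4 probes of other records had a median of 0.35. Among the latter, a Psmc6 probe on BC043044 gave 5996 in control and 8442 in denervated muscle, a difference of 0.06 against 1.06 for the gene's main probe. A Psmc2 probe on AK083989 was dim (93.4 and 141) and gave 0.17. Whether these records are other transcripts of the genes was not tested. Psmd12 was lowest by probes of its own mRNA too, at 0.19, 0.48 and 0.62. RefSeq lists pseudogenes named for Psma5, Psmb5, Psmb6 and Psmb7, and the gene Psme2b beside Psme2, so the signals of these genes may include near-identical copies.

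The immune beta subunits did not follow the genes whose places they take. Psmb8, the chymotrypsin-like immune subunit, gave 1711 in control and 1814 in denervated muscle, a difference of -0.35 ± 0.20, with its second probe at -0.13. Psmb9, the immune counterpart of Psmb6, gave 755 and 852 (-0.26 ± 0.20). Psmb10, the counterpart of Psmb7, gave 9916 and 6933 (-0.95 ± 0.20; NM_013640, mm8 chromosome 8, 108824906 to 108824965), the lowest value among the proteasome genes. Psmb10 was below 0 under each scaling tried, whereas Psmb8 and Psmb9 turned slightly positive with spike-in scaling (0.053 and 0.14) and without scaling (0.085 and 0.17), so their direction is not settled. The difference between each immune subunit and its constitutive partner does not depend on a shift of the whole array. It was -1.22 ± 0.29 for Psmb8 minus Psmb5, -0.98 ± 0.29 for Psmb9 minus Psmb6 and -1.47 ± 0.29 for Psmb10 minus Psmb7, where the error combines both technical errors. The ratio of immune to constitutive message was lower in the denervated pool by factors of 2.32, 1.97 and 2.77. All 31 constitutive subunits had a higher difference than every immune subunit.

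Immune subunits are abundant in leukocytes, so markers of other cells are given beside them. All 14 macrophage and myeloid markers were above 0 and 13 were past 2-fold, with a median of 1.64. Their summed signal, in multiples of the 75th percentile, was 23.4 in control and 71.1 in denervated muscle. Of 12 T, B and NK cell markers, 4 (Cd3d, Cd8a, Cd79a and Ms4a1) were not well above background on both arrays, and the 8 measured ones summed to 0.823 and 0.916; the 1 above 0 was Ptprc (1.44), which macrophages also express. Endothelial markers were all below 0 and summed to 32.0 and 19.1. With spike-in scaling the lymphoid markers Nkg7 (0.26), Cd79b (0.014) and Cd4 (0.010) and the endothelial marker Tek (0.058) were above 0 too. The part of these cells in the immune subunit values was not tested, and in whole muscle fewer cells of a type and less RNA per cell cannot be told apart. Genes that interferon regulates together with the immune subunits were measured too. Of 9 such genes with a measured probe, 7 were above 0 and none passed 2-fold in either direction, with a median of 0.11. The peptide transporter gene Tap1, which lies between Psmb9 and Psmb8 in the major histocompatibility complex, gave 82.4 and 111 (0.00 ± 0.23), and its partner Tap2, next to Psmb8, gave 345 and 536 (0.21 ± 0.20). The interferon factor Irf1 stood at -0.34, or 0.056 with spike-in scaling, with a second probe at 0.33. Interferon gamma itself (Ifng) was near background, at 16.3 and 39.4 (0.84 ± 0.47).

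The activators open the core from its ends in place of the 19S cap. None passed 2-fold in either direction, and their median was -0.28, or 0.12 with spike-in scaling. Psme3, the nuclear PA28 gamma activator, was the lowest: 27845 in control and 19724 in denervated muscle, a difference of -0.93 ± 0.20 (NM_011192, mm8 chromosome 11, 101138961 to 101139021), below 0 under each scaling tried. Psme1 and Psme2 encode the alpha and beta chains of one ring, PA28, which interferon induces. They are separated by 1 gene on chromosome 14, and they differed. Psme1 gave 7510 and 6847 (-0.57 ± 0.20), and Psme2 gave 17817 and 27977 (0.22 ± 0.20), with its second probe at 0.34. The gap of Psme1 below Psme2 was 0.78 ± 0.29, a comparison chosen after the values were seen. Psme4, which encodes the large activator PA200, had the brightest probe of all proteasome genes in the control pool. It gave 74660 and 100624, a difference of 0.00 ± 0.20, and its other 3 probes lay between 0.09 and 0.22. By the brightest probe all 31 constitutive subunits had a higher difference than any activator. Dimmer probes of Psmc6 (0.06), Psmc2 (0.17) and Psmd12 (0.19) lay below Psme2.

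Genes that help to build or restrain the particle ranged widely. Psmd5, Psmd9 and Psmd10 encode chaperones that hold the ATPases during assembly of the cap base. Psmd5 gave 1692 in control and 4205 in denervated muscle (0.88 ± 0.20), and Psmd10 (gankyrin) gave 1325 and 2532 (0.50 ± 0.20). Psmd9 gave 924 and 1205 (-0.05 ± 0.20), with its second probe at -0.01, and was positive with spike-in scaling at 0.35. Psmf1, the inhibitor PI31, stood at 0.15 ± 0.20 by its brightest probe. Its other probes gave 0.71 and, near background (27.8 and 31.7), -0.25 ± 0.32. With spike-in scaling the probes stood at 0.55, 1.11 and 0.15 in the same order, so its direction is not settled. Psmc3ip, the gene that is no subunit, gave 580 and 468 (-0.74 ± 0.20). The chaperones of the 20S core are listed on the array under older names and so lie outside the name rule. RefSeq accessions identified Psmg1 at 0.12 ± 0.20, Psmg2 at 0.43 ± 0.20 with a second probe at 0.53, and Psmg3 at 0.48 ± 0.20. Both probes of Psmb11, the thymus beta subunit, also named otherwise in the files, were not well above background on either array.

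Partners and cap subunits of the proteasome outside the name rule were less uniform. Of 27 such genes with a probe, 26 were measured and 20 were above 0 (median 0.36). Upward, 4 passed 2-fold, or 8 with spike-in scaling, and downward none did. For comparison, 42.8% of all measured genes were above 0, 6.96% passed 2-fold upward and 8.62% downward. With spike-in scaling 67.7% of all measured genes were above 0 and 14.6% passed 2-fold upward. Adrm1, a ubiquitin receptor of the cap that is a true subunit, gave 9356 in control and 25457 in denervated muscle (1.01 ± 0.20). Sem1, the smallest cap subunit, did not share this, at 82912 and 93944 (-0.25 ± 0.20, or 0.15 with spike-in scaling). Usp14, a deubiquitinase that docks on Psmd2, gave 1287 and 4076 (1.23 ± 0.20), with its other probes down to 1.08, whereas the cap-bound deubiquitinase Uchl5 stood at 0.31 ± 0.20. The shuttle factor Ubqln1 stood at 1.35 ± 0.20, with other probes from 0.55 to 1.42, and Rad23b at 0.89 ± 0.20. Pomp, the chaperone that matures the 20S core, gave 45859 and 109348 (0.82 ± 0.20), close to the beta subunits. Nfe2l1, the transcription factor that raises proteasome genes when proteasomes are inhibited, gave 60462 and 113667 (0.48 ± 0.20). Its relative Nfe2l2, the antioxidant factor, stood at 1.32 ± 0.20, with other probes from 0.25 to 1.34. The polyubiquitin gene Ubb, which supplies the tag, stood at 0.02 (0.42 with spike-in scaling).

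**Figure D4:**
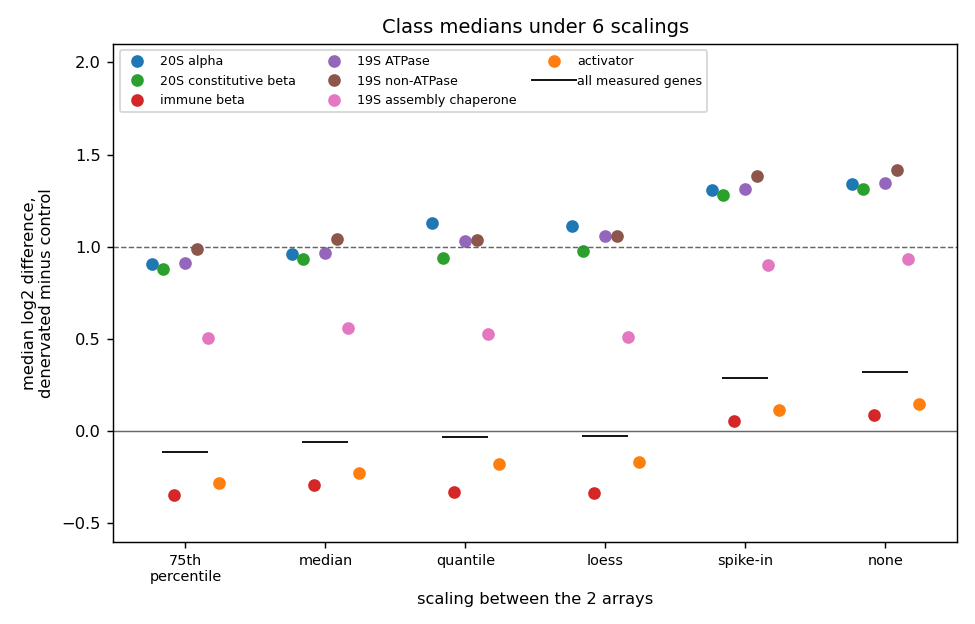
Median log2 difference (denervated minus control) of 7 classes of proteasome genes under 6 ways of scaling the arrays to each other; points are class medians and black dashes the median of all measured genes. The constitutive classes lie between 0.88 and 1.42 under all 6, and the immune beta and activator medians lie below the median of all genes under all 6 while changing sign with the spike-in scale and with none.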

How the data were processed

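The submitters' processing notes name Agilent Feature Extraction 9.5. The spot intensity used here, a column of the deposited scanner files, had its background and spatial trend removed array by array, per the file headers, and arrays were not scaled to each other. For each array 1.65 µg of Cy3-labelled cRNA was fragmented, per the labels. The authors also deposited a table of whole-number values, used as a score and as an alternative only; its column medians were 10 and 9, and its ratio to the intensity was near constant within each array (coefficient of variation 0.0675% in control and 0.0671% in denervated, low values left out), so it is the intensity times 1 factor per array, not centred and on a linear scale. No sample column was left unused.

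Spots marked as outliers were left out (87 and 81 of 43379), spots of a probe were averaged on the log2 scale, and each array was divided by its 75th percentile. Symbols were updated through RefSeq accessions of GRCm38.p6 for 23372 probes, for names only; probe positions are on mm8, per the file headers. The software's preset multiplicative error of 10% sets the technical error of bright spots; 173 probes spotted at least 8 times gave log2 differences with a median SD of 0.06. With 1 array per group no test was run. Limma 3.58.1 under R 4.3.3 gave the normexp alternative (offset 50). The spike-in scale used 8 probes. The calculation was tested on simulated data. The genes, classes and lists were chosen with earlier results of these data known. By rule the text names every member, and of the related and interferon-linked genes those past 2-fold with Nfe2l1, Pomp, Adrm1 and Usp14; Sem1, Uchl5, Rad23b, Ubb, Tap1, Tap2, Irf1, Ifng, the core chaperones and Psmb11 were added after their values were seen.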

Additional observations from a re-analysis of the deposited data

How the results depend on the processing

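The 17 summary results were recomputed under 12 alternatives. The only differences past 2-fold among them were Psmb8 minus Psmb5 (-1.22) and Psmb10 minus Psmb7 (-1.47). Neither changed sign, but a shift of the whole array cannot move a difference between genes. The medians of immune beta and activator genes, below 2-fold, did change sign. Of the 204 values, 176 stayed within the technical error of 0.20 (or, for counts, within 1.5 times), and of 516 values of single proteasome genes 421 did. The constitutive subunits numbered 31 above 0 under each alternative. With spike-in scaling and with no scaling, the count of proteasome genes at least 2-fold higher was 29 under both, the median over all members 1.27 and 1.30, the constitutive median 1.32 and 1.35, and the medians were 1.31 and 1.34 for alpha, 1.28 and 1.31 for constitutive beta, 1.31 and 1.35 for ATPase, 1.39 and 1.42 for non-ATPase, 0.90 and 0.93 for assembly chaperones, 0.053 and 0.085 for immune beta, and 0.12 and 0.15 for activator genes. Of all measured genes, 14.6% with spike-in scaling and 15.5% with none were at least 2-fold higher. Related genes at least 2-fold higher then numbered 8 and 10 with medians of 0.76 and 0.79. These shifts follow from the scale itself, which moves every gene by 0.40 or 0.43. Quantile scaling put the alpha median at 1.13, and the cause was not tested. With no filter on dim probes 1 gene, Psma8, was at least 2-fold lower. Taking the probe with the smallest difference, by construction the smallest, put Psmb8 minus Psmb5 at -0.997 and left 2 related genes at least 2-fold higher. The share of higher genes among all 2-fold calls was 44.7%, or 77.7% with spike-in scaling and 79.7% with none. No paired analysis was possible because each group is 1 array, and no replicate could be left out. Signal near background limits Psma8, Tap1, Ifng, the dimmest Psmf1 probe and most of the T, B and NK cell markers.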
